A study of Mus musculus with 90 samples.

Results

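The neuronal step of retinoic acid differentiation was followed in mouse embryonic stem cells made to lack CBX7, by setting the day 8 libraries of the knockout (KO) line against its day 6 libraries. These are 6 of the 90 RNA-seq libraries of the series, 3 per day, taken by the genotype, series and day that the labels give. The parent line is J1. The KO genotype is labelled CBX7 KO, and both days carry it. Cells freed of feeders were kept for 4 days in suspension without LIF, received 5 uM retinoic acid from day 4 on, and were collected on day 8 or day 6. The same days of cells labelled CBX7-mCaPS and of unmodified cells (WT), each with 3 libraries per day and the same treatment, were used for comparison. One model was fitted to the libraries of days 8, 6 and 0 of these lines and of a line labelled CBX7-CaPS, whose levels are shown in a plot and which enters no comparison. The labels do not say how the gene was disrupted, whether the KO line is a single clone, or whether the 3 libraries of a day came from separate cultures, so the spread between them may be technical.

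CBX7 is a chromodomain subunit of Polycomb repressive complex 1 (PRC1). PRC1 binds chromatin that carries trimethylated lysine 27 of histone H3, places ubiquitin on histone H2A, and keeps developmental genes silent in stem cells. When aggregated stem cells meet retinoic acid they turn into neural progenitors with the character of hindbrain and spinal cord. Basic helix-loop-helix factors of the proneural class then push single cells out of the cell cycle and into the neuronal fate. These cells present Delta ligands, and Notch signalling holds their neighbours in the progenitor state.

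Libraries held 28265911 to 39067186 counts on day 8 and 38875796 to 50299406 counts on day 6. The precursor of ribosomal RNA, Rn45s, took 4.24% to 21.8% of them on day 8 and 7.86% to 27.3% on day 6. Levels are CPM, each library's counts on a common depth scale, after scaling by trimmed mean of M values (TMM), and changes are log2 ratios of day 8 over day 6 from edgeR's quasi-likelihood fit, given ± SE, with Benjamini-Hochberg adjusted p. Cbx7 itself (chromosome 15, 79915807 to 79932646, minus strand, mm10) had 14.7, 20.8 and 47.5 CPM in the KO libraries of day 8 and 27.9, 34.98 and 32.9 CPM in those of day 6, against 17.3 to 20.7 CPM in WT on day 8 and 27.2 to 60.4 CPM in WT on day 6. RNA from the gene was therefore still counted in the KO line. Since the labels do not say how the gene was disrupted, this level checks nothing about the genotype.

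Day 8 replicate 3 stood apart. Each library was set against the mean of the 2 others of its day, as a ratio of CPM + 1. Genes with a mean of at least 5 CPM on that day were used. Of 10989 such genes on day 8, 18.6% lay more than 2-fold from that mean in replicate 3, against 6.93% in replicate 1 and 3.63% in replicate 2. In the day 6 libraries the share was 0.0748% to 0.617%. The values of day 8 replicate 3 are given apart from those of the other libraries. Counts of genes called are given with it and, where they change, without it.

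Of 17818 genes tested, 602 were higher on day 8 (3.38%) and 290 were lower (1.63%) at an adjusted p under 0.05. Without day 8 replicate 3 the counts were 884 higher (4.86%) and 506 lower (2.78%) of 18181 genes, and 546 of the 602 and 207 of the 290 genes were called in both. Leaving out any other KO library lowered the counts, to 212 higher and 103 lower without day 8 replicate 1, 297 and 200 without day 8 replicate 2, 186 and 138 without day 6 replicate 1, 184 and 97 without day 6 replicate 2, and 203 and 86 without day 6 replicate 3. Below, the range over these fits stands beside the list counts that they moved by over 1.5 times. Of the 107 called genes that are named here with a value, 101 kept their call without day 8 replicate 3, 76 without day 8 replicate 2, 59 without day 8 replicate 1, 61 without day 6 replicate 1, 56 without day 6 replicate 2 and 55 without day 6 replicate 3. Those that kept it in each of these fits numbered 49: Aldh1a2, Bhlhe23, Bub1b, Calcoco2, Ccnd1, Cdkn1c, Cyp26b1, Dcx, Dll3, Dner, Dppa5a, Elavl3, Esrrb, Fbxo15, Gap43, Gdf3, Gria2, Gtse1, Hoxd3os1, Kcnj12, Klf2, Lbx1, Lhx5, Lin28a, Map2, Mapt, Mcm6, Mfng, Myt1, Nanog, Nefm, Nhlh1, Nhlh2, Nrxn3, Phf19, Plk3, Rara, Robo3, Scn3a, Scrt1, Scrt2, Sfrp5, Slc1a3, Slc6a5, Snap25, Sox9, Syt1, Syt4 and Vxn. The median change over all genes tested was 0.05. In bulk RNA, fewer cells of a type and less RNA per cell cannot be told apart.

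Among the 10 largest gains were genes known from young neurons. Scrt1, a zinc finger repressor made in newly born neurons, had 32.8, 47.3 and 15.4 CPM on day 8 and 0.163, 0.293 and 0.295 CPM on day 6, a log2 change of 6.97 ± 0.89 (adjusted p = 7.8e-05). Robo3, the axon guidance receptor of commissural neurons, had 226, 198 and 102 CPM on day 8 and 2.10, 1.76 and 1.35 CPM on day 6 (log2 change 6.66 ± 0.83, adjusted p = 7.4e-05). The 10 largest gains, among called genes of at least 5 CPM whose days did not overlap, also held the transcription factors Bhlhe23 (6.75 ± 1.17), Lhx5 (6.04 ± 1.01) and Hoxb9 (6.00 ± 1.53). Further members were the sodium channel Scn3a (6.75 ± 0.94), the neuronal Notch ligand Dner (6.14 ± 1.142), the microtubule protein Dcx (5.65 ± 1.02), and Vxn (6.43 ± 1.28), a promoter of neurogenesis known from frog embryos. Hoxd3os1 (6.77 ± 1.19) completes the set. It is an antisense transcript in the Hoxd cluster, and since the strand setting of the counting is not stated, its reads cannot be told apart from those of the genes it overlaps.

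In day 8 replicate 3 each of these 10 genes was below both other day 8 libraries. The gap was wide for Vxn, with 0.278 CPM in replicate 3 against 11.4 and 10.6 CPM in the other day 8 libraries, and for Hoxd3os1 (1.70 CPM against 31.1 and 22.8 CPM). It was narrower for Robo3 and Scrt1.

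The largest losses were led by genes of the stem cell state. Dppa3 had 0.113, 0.188 and 1.18 CPM on day 8 and 5.69, 5.69 and 7.87 CPM on day 6 (log2 change -3.75 ± 1.09, adjusted p = 0.042). Nanog (-3.44 ± 0.58), Dppa5a (-3.33 ± 0.55) and Klf2 (-2.83 ± 0.57) were in the same set, as was Fbxo15 (-3.11 ± 0.51), an F-box protein made in embryonic stem cells. The others were the potassium channel Kcnj12 (-3.67 ± 0.67), the Wnt inhibitor Sfrp5 (-3.54 ± 0.63), the water and glycerol channel Aqp3 (-3.06 ± 0.69), the autophagy receptor Calcoco2 (-3.04 ± 0.65) and the monoamine oxidase Maob (-2.84 ± 0.71). Nanog, Dppa3 and Dppa5a, like Pou5f1, have near-identical pseudogenes, and how reads with several matches were counted is not stated, so their values are uncertain to that degree.

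**Figure D1:**
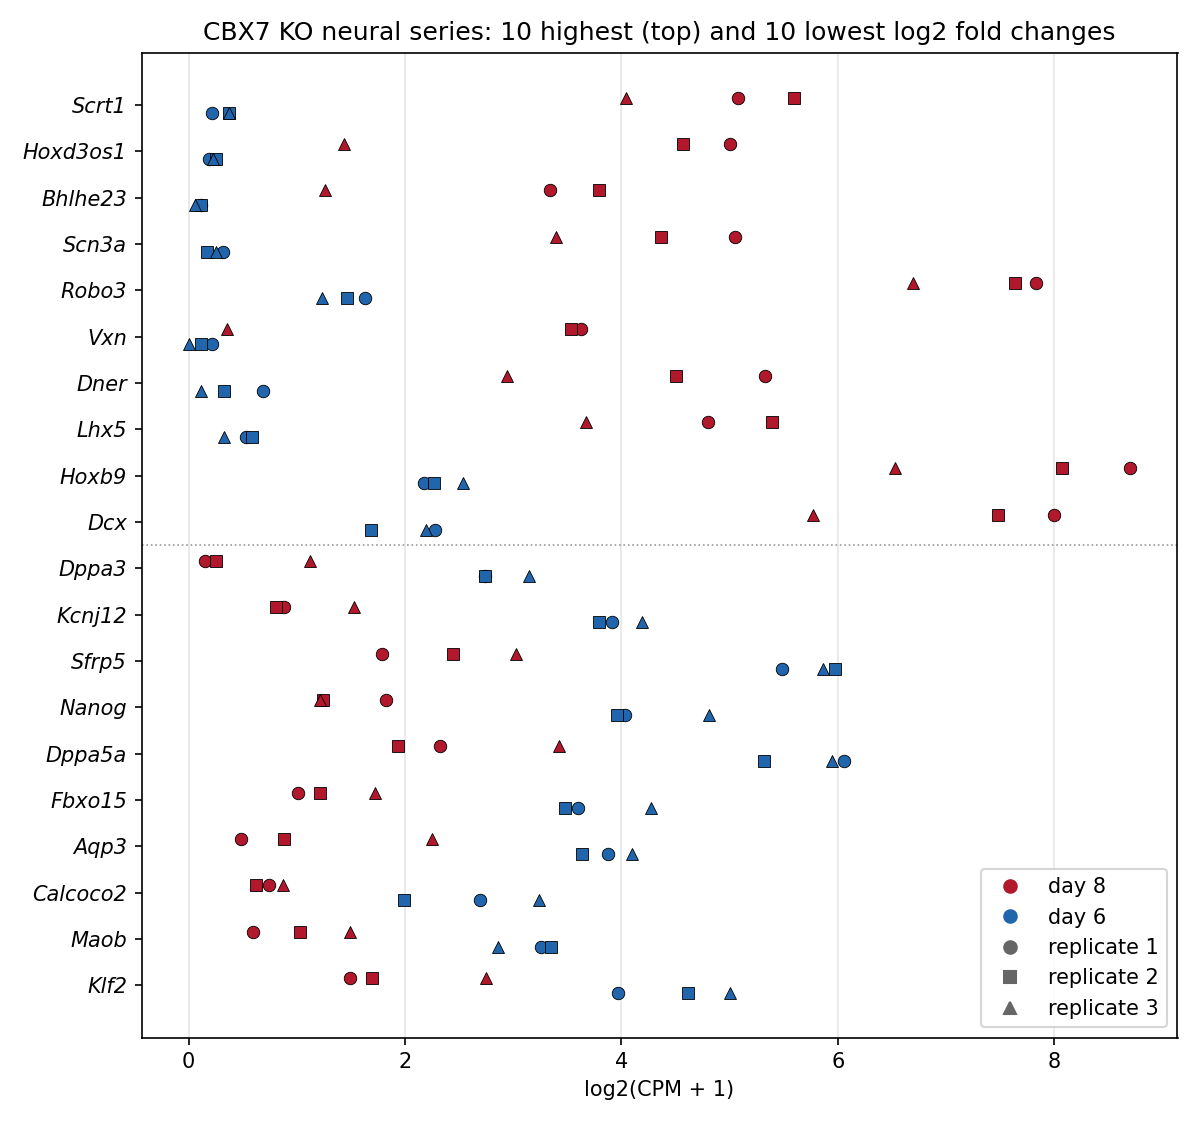
Level of the 10 genes with the largest gains (upper block) and the 10 with the largest losses (lower block) as log2(CPM + 1) on the x axis, in each KO library; red symbols are day 8, blue symbols day 6, and the shape gives the replicate. Among the gains the triangle of day 8 replicate 3 lies left of the other red symbols, for Vxn at 0.278 CPM, close to the day 6 libraries.

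Pan-neuronal genes rose as a group: 22 of 30 were called higher and none lower, with a median log2 change of 3.19 (23 called without replicate 3, median 3.67, and 11 to 17 without any other KO library). For all members but Nsg2, Elavl2, Cplx2 and Celf5 the 3 day 8 libraries lay above the 3 of day 6, a pattern that 15.8% of all genes tested showed. Dcx, which bundles the microtubules of migrating neurons, had 254, 178 and 53.5 CPM on day 8 and 3.84, 2.22 and 3.59 CPM on day 6 (adjusted p = 0.0017). Tubb3, the neuronal beta tubulin, had 203, 186 and 16.1 CPM on day 8 and 9.57, 7.08 and 6.66 CPM on day 6, a log2 change of 4.12 ± 0.95 (adjusted p = 0.0098). Replicates 1 and 2 were far above the day 6 libraries, and replicate 3 was just above them.

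The RNA-binding proteins of the Elav family, which steady and splice neuronal transcripts, did not behave alike. Elavl3 had 128, 95.7 and 23.7 CPM on day 8 and 4.41, 3.68 and 3.16 CPM on day 6 (4.46 ± 0.80, adjusted p = 0.0016), and Elavl4 had 73.0, 64.1 and 9.55 CPM on day 8 and 6.98, 6.24 and 4.56 CPM on day 6 (3.04 ± 0.69, adjusted p = 0.009). Elavl2 was already present on day 6, at 37.4 to 45.9 CPM, had 127, 64.3 and 18.6 CPM on day 8, and was not called (adjusted p = 0.53). Replicate 3 was below the day 6 libraries for Elavl2 and above them for Elavl3 and Elavl4.

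Called members of the list also serve the cytoskeleton and vesicles. The neurofilament genes Nefl (3.96 ± 0.90) and Nefm (4.93 ± 1.00), the internexin Ina (3.33 ± 0.84), and the microtubule-associated Map2 (3.43 ± 0.64) and Mapt (2.63 ± 0.52) were called, as were Snap25 (4.68 ± 0.85), part of the machine that fuses vesicles with the membrane, and the synaptotagmins Syt1 (3.38 ± 0.68) and Syt4 (4.67 ± 1.00). Gap43, a growth cone protein, had 86.7, 102 and 23.8 CPM on day 8 and 11.1, 9.71 and 9.07 CPM on day 6 (2.83 ± 0.53, adjusted p = 0.002). The zinc finger factors Myt1 (5.65 ± 0.98), Myt1l (5.22 ± 1.36) and St18 (4.62 ± 1.13), which repress non-neuronal programmes, rose too. Rbfox3, the antigen known as NeuN in mature neurons, stayed below 10 CPM, with 8.44, 9.49 and 3.61 CPM on day 8 and 1.02, 0.712 and 1.39 CPM on day 6 (2.78 ± 0.59, adjusted p = 0.0053). The 8 members not called had changes between 0.31 for the splicing factor Celf5 and 2.64 for the stathmin Stmn4, all positive.

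Factors that start and carry the neuronal programme rose in the same interval: 14 of 21 tested proneural and early neuronal transcription factors were higher and none lower, with a median log2 change of 3.05 (18 without replicate 3, median 3.60, and 4 to 7 without any other KO library). Neurod2 did not pass the filter on low counts. Promoter letters are printed here for Nhlh2, a helix-loop-helix factor of this group, and for Elavl4, as examples of genes that rose and whose promoter holds both E-box hexamers searched. Capitals mark CAGATG and CAGCTG (the second reads the same on both strands). Each line holds 250 bases before the start and 50 from it on, from RefSeq on GRCm38.p6: chr3:102009895-102010194 on the plus strand for Nhlh2, and chr4:110287478-110287777 on the minus strand for Elavl4, which is 1 of 4 promoters of that gene in the table.
Nhlh2: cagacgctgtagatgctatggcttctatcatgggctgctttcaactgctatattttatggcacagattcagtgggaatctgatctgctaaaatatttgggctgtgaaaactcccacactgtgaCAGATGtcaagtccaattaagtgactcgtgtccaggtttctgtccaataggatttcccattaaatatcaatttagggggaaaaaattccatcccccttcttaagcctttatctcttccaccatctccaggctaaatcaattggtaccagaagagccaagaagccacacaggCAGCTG
Elavl4: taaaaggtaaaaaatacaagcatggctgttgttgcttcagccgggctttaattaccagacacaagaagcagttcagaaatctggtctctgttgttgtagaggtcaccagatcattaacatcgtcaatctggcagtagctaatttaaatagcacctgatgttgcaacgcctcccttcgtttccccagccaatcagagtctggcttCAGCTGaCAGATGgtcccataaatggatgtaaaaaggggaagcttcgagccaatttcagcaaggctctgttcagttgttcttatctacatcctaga

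Both hexamers were searched on both strands. CAGATG was in 22.4% of 49 promoters of 20 matched pan-neuronal genes and in 22.2% of 18 promoters of 15 matched proneural genes, against 17.2% of 32851 promoters in the table. CAGCTG was in 32.7% and 27.8% of them, against 16.3% of all. A hexamer match is a description of these letters and no evidence of binding.

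Among the proneural factors, Neurog2 had 12.1, 37.1 and 0.695 CPM on day 8 and 0.734, 0.272 and 0.506 CPM on day 6 (log2 change 5.04 ± 1.26, adjusted p = 0.017). Its replicate 3 lay within the day 6 range. Neurod4, a factor acting after the neurogenins, had 31.3, 35.2 and 1.04 CPM on day 8 and 1.51, 0.858 and 0.717 CPM on day 6 (4.45 ± 1.15, adjusted p = 0.022), again with replicate 3 among the day 6 libraries. Neurog1 was not called with all libraries and was without replicate 3, with 50.2, 92.4 and 10.0 CPM on day 8 and 5.75, 5.21 and 5.48 CPM on day 6 (adjusted p = 0.06, and 0.023 without replicate 3), as did Insm1 and Bhlhe22.

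The other called factors of the list include several known from postmitotic neurons. Nhlh2 had 86.8, 78.7 and 14.5 CPM on day 8 and 2.57, 1.09 and 1.31 CPM on day 6 (5.18 ± 1.05, adjusted p = 0.0039), and its paralog Nhlh1 changed by 4.40 ± 0.76. Neurod1 (3.36 ± 0.75), Scrt2 (5.25 ± 0.76), Ebf1 (2.33 ± 0.69), Ebf2 (3.93 ± 0.91), Ebf3 (2.91 ± 0.64), Onecut1 (2.15 ± 0.56), Onecut2 (1.81 ± 0.44) and the Notch pathway antagonist Hes6 (1.85 ± 0.45) were all higher. Ptf1a, which specifies inhibitory neurons of dorsal spinal cord and cerebellum, had 2.43, 0.848 and 0 CPM on day 8 and no counts on day 6. It was at least 52.5-fold higher on day 8, against a floor of 3 counts over the day 6 libraries (adjusted p = 0.029). Atoh1 and Neurog3 were below 1 CPM in every library.

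Genes of synapses and transmitters followed in part, with 9 of 26 tested members called higher and none lower (median 2.07), or 16 without replicate 3 and 5 to 7 without any other KO library. The called genes include those of inhibitory transmission. Slc6a5, the glycine transporter of inhibitory neurons, had 4.74, 3.89 and 0.347 CPM on day 8 and no counts on day 6, at least 144-fold higher (adjusted p = 0.0016). Gad2 and Gad1, which make GABA from glutamate, changed by 3.93 ± 0.93 and 2.16 ± 0.64 (adjusted p = 0.012 and 0.045). Slc32a1, which loads GABA and glycine into vesicles, had 4.80, 4.31 and 2.36 CPM on day 8 and 0.122, 0.461 and 0.337 CPM on day 6 (3.63 ± 0.91, adjusted p = 0.017). The cholinergic genes Chat, Slc18a3 and Slc5a7 were below 1 CPM in every library, and Slc17a6 did not pass the filter.

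Other called members included the glutamate receptor subunit Gria2 (4.76 ± 0.91) and the neurexin Nrxn3 (3.86 ± 0.69). In replicate 3, 22 of the 26 synapse genes were below both other day 8 libraries, as were 43.8% of all genes tested. Nrxn3 was not among them, and its 27.0 CPM in replicate 3 lay between the other day 8 libraries (39.4 and 26.3 CPM).

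Among factors of particular spinal and hindbrain neurons, 3 of 28 tested were called higher and none lower (5 higher without replicate 3, and 2 or 3 without any other KO library), with a median of 0.22. Lbx1 and Prrxl1 mark dorsal interneurons, and Lhx5 interneurons of several classes. Lhx5 had 26.9, 41.0 and 11.7 CPM on day 8 and 0.449, 0.502 and 0.253 CPM on day 6, Lbx1 had 12.9, 12.5 and 3.75 CPM on day 8 and 0.449, 0.335 and 0.422 CPM on day 6 (4.59 ± 0.83, adjusted p = 0.0017), and Prrxl1 had 2.60, 1.37 and 1.04 CPM on day 8 and 0.0816, 0.0837 and 0.105 CPM on day 6 (4.16 ± 1.07, adjusted p = 0.019). Lhx1, shared by several interneuron classes, had 154, 148 and 34.4 CPM on day 8 and 14.4, 17.7 and 20.1 CPM on day 6 without reaching the threshold (adjusted p = 0.074, and 0.033 without replicate 3). Motor neuron factors were low: Mnx1 had 3.98, 11.8 and 10.1 CPM on day 8 and 6.87, 13.9 and 10.4 CPM on day 6, and Isl1 had 1.16, 1.32 and 0.347 CPM on day 8 and 0.490, 0.419 and 0.337 CPM on day 6, neither called.

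Neural progenitor genes were mostly present on both days: 5 of 28 were called higher and none lower, with a median of 1.03 (6 higher without replicate 3, and 2 to 4 without any other KO library). Pax6 had 161, 174 and 27.8 CPM on day 8 and 167, 155 and 158 CPM on day 6, and Sox2 had 142, 129.97 and 44.9 CPM on day 8 and 110.2, 148 and 144 CPM on day 6, neither called (adjusted p = 0.86 and 0.82). In both, replicates 1 and 2 lay at or near the day 6 level and replicate 3 far below it. Fabp7, a fatty acid binding protein of radial glia, rose to 16.1, 8.97 and 0.347 CPM on day 8, against 0.408, 0.0419 and 0.169 CPM on day 6 (5.34 ± 1.26, adjusted p = 0.012). Sox9, which opens the gliogenic phase, had 114, 98.4 and 17.5 CPM on day 8 and 6.16, 12.04 and 10.6 CPM on day 6 (2.997 ± 0.59, adjusted p = 0.0032). Ncam1 (2.02 ± 0.42) and the glutamate transporter of radial glia, Slc1a3 (2.07 ± 0.41), rose as well. Sox1, a marker of the early neural plate, had 44.9, 74.2 and 12.7 CPM on day 8 and 78.6, 103 and 86.9 CPM on day 6, with no overlap and no call (adjusted p = 0.62).

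Genes of Notch signalling gave 6 higher and 1 lower of 16 (7 higher and 1 lower without replicate 3, and 2 higher with 0 or 1 lower without any other KO library). Among ligands, Dll3, which acts inside the signalling cell, had 30.1, 39.0 and 5.14 CPM on day 8 and 2.39, 1.76 and 2.32 CPM on day 6 (3.52 ± 0.71, adjusted p = 0.0036). Jag1 also rose (1.28 ± 0.38, adjusted p = 0.047). Dll1 had 154, 149 and 18.2 CPM on day 8 and 26.7, 22.0 and 22.9 CPM on day 6. Its replicate 3 lay below day 6 and the other day 8 libraries well above it, and the call depended on that library (adjusted p = 0.061, and 0.0096 without it). Among receptors, Notch2 was lower, with 129, 154 and 180.5 CPM on day 8 and 236, 288 and 266 CPM on day 6 (-0.77 ± 0.18, adjusted p = 0.014), while Notch1 had 287, 371 and 155 CPM on day 8 and 94.7, 119 and 105 CPM on day 6 (adjusted p = 0.072, and 0.028 without replicate 3). Among targets, Hes5 had 87.8, 147 and 9.73 CPM on day 8 and 4.63, 5.15 and 3.71 CPM on day 6 (4.18 ± 1.04, adjusted p = 0.017), and Nrarp (2.06 ± 0.60) and Hey1 (1.70 ± 0.51) rose, whereas Hes1 had 41.4, 48.5 and 35.8 CPM on day 8 and 31.2, 43.8 and 36.7 CPM on day 6 (adjusted p = 0.76). Mfng, a glycosyltransferase that tunes the receptors, changed by 2.24 ± 0.43.

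None of 13 hedgehog pathway genes was called in either direction. Gli1, a target of the pathway, had 9.25, 32.6 and 10.3 CPM on day 8 and 7.91, 8.60 and 10.3 CPM on day 6, with replicate 2 alone above the others.

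Genes that make, degrade and read retinoic acid gave 5 higher and none lower of 17 (6 higher and 1 lower without replicate 3). Cyp26b1, which degrades retinoic acid, had 1416, 945 and 97.0 CPM on day 8 and 58.5, 50.5 and 93.2 CPM on day 6 (3.60 ± 0.60, adjusted p = 0.0011). Replicate 3 was just above the highest day 6 library and far below the other day 8 libraries. Aldh1a2, which makes retinoic acid, rose to 24.4, 23.2 and 14.3 CPM on day 8, against 1.35, 1.13 and 2.95 CPM on day 6 (3.51 ± 0.73, adjusted p = 0.0045). The receptor genes Rarb (1.12 ± 0.30) and Rara (1.12 ± 0.22) rose too. Cyp26a1 had 89.9, 159 and 72.4 CPM on day 8 and 114, 131 and 128 CPM on day 6, and Crabp2 had 299, 342 and 243 CPM on day 8 and 823, 690.01 and 613 CPM on day 6, neither called. Stra8, a target of retinoic acid, had 22.2, 29.4 and 201 CPM on day 8 and 171, 140.4 and 139.9 CPM on day 6. Without replicate 3 it was called lower (-2.54, adjusted p = 0.034), and with it not (adjusted p = 0.58).

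Hox genes, classical Polycomb targets that retinoic acid opens from the front of each cluster, were read in 2 lists split by paralog number. Of paralogs 1 to 5, 2 of 15 rose, Hoxa3 (1.43 ± 0.36) and Hoxa5 (1.42 ± 0.43), with a median of 0.78, or 4 without replicate 3 and 0 without any other KO library. Hoxb1 had 8.38, 15.2 and 30.2 CPM on day 8 and 23.5, 31.8 and 34.5 CPM on day 6 and was not called. Of paralogs 6 to 13, 3 of 21 tested rose, with a median of 1.78 (5 without replicate 3, and 0 to 2 without any other KO library). Hoxb9 had 416, 269 and 91.0 CPM on day 8 and 3.51, 3.81 and 4.79 CPM on day 6 (adjusted p = 0.019), Hoxa6 had 40.9, 37.1 and 2.05 CPM on day 8 and 1.12, 1.13 and 1.29 CPM on day 6 (4.50 ± 1.143), and Hoxc6 had 47.5, 40.2 and 6.95 CPM on day 8 and 1.84, 1.88 and 3.16 CPM on day 6 (3.78 ± 0.92). Hoxb8 had 234, 285 and 69.0 CPM on day 8 and 33.9, 37.8 and 39.2 CPM on day 6 with no overlap, and did not reach the threshold (adjusted p = 0.17). Hoxa10, Hoxa11, Hoxc10, Hoxd10 and Hoxd11 stayed below 1 CPM in all 6 libraries.

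Pluripotency genes fell: 14 of 24 were lower and none higher, with a median of -1.80 (15 lower without replicate 3, median -2.45, and 6 to 8 without any other KO library). Pou5f1, the central factor of the stem cell state, had 6.83, 3.25 and 10.8 CPM on day 8 and 22.9, 24.2 and 28.1 CPM on day 6 (-1.86 ± 0.56, adjusted p = 0.048). Nanog had 2.54, 1.37 and 1.32 CPM on day 8 and 15.4, 14.5 and 27.1 CPM on day 6 (adjusted p = 0.0011). Lin28a, an RNA-binding protein that blocks let-7 maturation, had 56.1, 69.8 and 158 CPM on day 8 and 355, 394 and 337 CPM on day 6 (-1.94 ± 0.39, adjusted p = 0.0036), and Sall4 had 69.1, 105 and 126 CPM on day 8 and 229, 275 and 283 CPM on day 6 (-1.39 ± 0.33, adjusted p = 0.012). Esrrb (-2.16 ± 0.44), Zfp42 (-2.04 ± 0.57), Gdf3 (-3.20 ± 0.56), Utf1 (-2.05 ± 0.60), Prdm14 (-2.76 ± 0.73), Dppa2 (-2.30 ± 0.65) and Dppa4 (-1.75 ± 0.52) were lower too. In replicate 3, 2 of the 24 genes (8.33%) were above all other KO libraries, against 26.4% of all genes tested. Above both other day 8 libraries were 17 of the 24, as were 39.6% of all genes tested. Tfcp2l1 shows the pattern, with 4.80, 4.05 and 25.1 CPM on day 8 and 31.6, 27.9 and 41.1 CPM on day 6 (adjusted p = 0.1, and 0.002 without replicate 3).

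**Figure D2:**
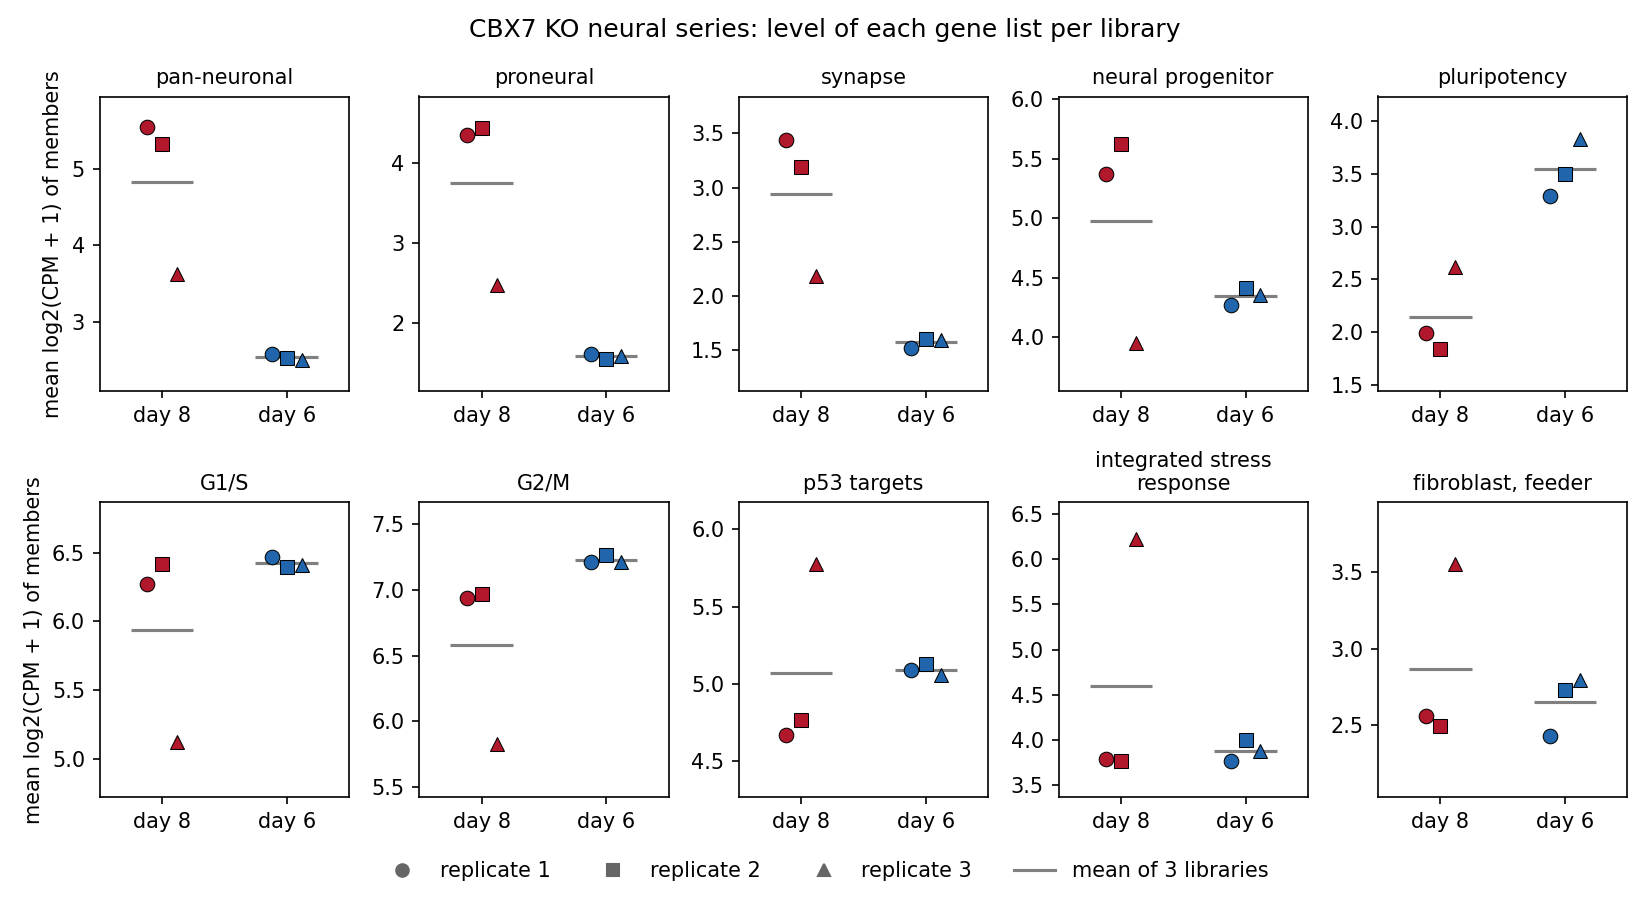
Mean log2(CPM + 1) over the members of 10 gene lists (y axis, own scale in each panel) in the 6 KO libraries, day 8 left and day 6 right; shapes give the replicate and grey lines the mean of 3 libraries. Day 8 replicate 3 lies between the other day 8 libraries and day 6 for the pan-neuronal list (3.62, against 5.55 and 5.32), below all others for G2/M genes (5.82) and above all others for the integrated stress response (6.23).

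Cell cycle genes showed smaller differences, and most calls were lost without replicate 3. Of 28 G1/S genes, 1 was higher and 7 were lower, with a median of -0.67. Of 28 G2/M genes, none was higher and 7 were lower, with a median of -0.56. Without day 8 replicate 3 the counts were 1 higher and 1 lower in each list, with medians of -0.38 and -0.29. Without any other KO library, 1 to 10 G1/S genes and 1 to 11 G2/M genes were lower, with the fewest when a day 6 library was left out. In the fit without replicate 3, Mcm6, a subunit of the replicative helicase (-0.73, adjusted p = 0.029), and the spindle checkpoint kinase Bub1b (-0.68, adjusted p = 0.037) were lower, and the phosphatase Cdc25b, which activates CDK1 (1.66, adjusted p = 0.0055), and Ccnd1 (2.67, adjusted p = 0.0011) were higher.

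Replicates 1 and 2 of day 8 lay slightly below day 6 for most mitotic genes, and replicate 3 far below. Cdk1, the kinase that drives mitosis, had 77.5, 72.1 and 38.4 CPM on day 8 and 125, 117 and 117 CPM on day 6 (-0.94 ± 0.23, adjusted p = 0.015, and 0.063 without replicate 3). Mki67, the proliferation antigen Ki-67, had 795, 852 and 204 CPM on day 8 and 802, 968 and 999.7 CPM on day 6 (adjusted p = 0.35). Ccnd1, the cyclin of early G1, rose to 102, 176 and 59.5 CPM on day 8, against 17.7, 24.3 and 23.2 CPM on day 6 (2.37 ± 0.48, adjusted p = 0.004). Of 10 genes for CDK inhibitors and pocket proteins, 2 rose, or 1 without any KO library other than replicate 3. Cdkn1c, the inhibitor p57, had 225, 372 and 230.4 CPM on day 8 and 43.1, 71.6 and 61.8 CPM on day 6 (2.23 ± 0.30, adjusted p = 0.00015), with replicate 3 between the other day 8 libraries, and Rbl2 changed by 0.88 ± 0.24.

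The promoters of 3 mitotic genes that were called with all libraries and not without replicate 3 are shown for the letters they share. Capitals mark CCAAT and TTTGAA, the cell cycle genes homology region (CHR) of mitotic promoters. TTTGAA and CCAAT were searched on both strands and did not overlap each other in these promoters. The lines hold 300 bases each from RefSeq, GRCm38.p6, at chr4:118437294-118437593 on the minus strand for Cdc20, chr2:172370521-172370820 on the minus strand for Aurka and chr9:70421505-70421804 on the minus strand for Ccnb2.
Cdc20: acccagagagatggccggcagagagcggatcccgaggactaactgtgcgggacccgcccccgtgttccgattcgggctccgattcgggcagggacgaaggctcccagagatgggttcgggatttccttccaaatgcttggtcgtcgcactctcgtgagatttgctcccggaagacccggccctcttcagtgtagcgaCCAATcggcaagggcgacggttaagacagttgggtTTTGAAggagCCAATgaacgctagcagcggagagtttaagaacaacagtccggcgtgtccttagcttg
Aurka: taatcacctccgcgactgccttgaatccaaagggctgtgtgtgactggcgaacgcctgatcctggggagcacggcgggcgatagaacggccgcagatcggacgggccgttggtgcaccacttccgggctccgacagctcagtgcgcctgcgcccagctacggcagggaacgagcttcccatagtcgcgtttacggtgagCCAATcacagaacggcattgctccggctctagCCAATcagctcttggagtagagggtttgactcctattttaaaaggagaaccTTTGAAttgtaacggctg
Ccnb2: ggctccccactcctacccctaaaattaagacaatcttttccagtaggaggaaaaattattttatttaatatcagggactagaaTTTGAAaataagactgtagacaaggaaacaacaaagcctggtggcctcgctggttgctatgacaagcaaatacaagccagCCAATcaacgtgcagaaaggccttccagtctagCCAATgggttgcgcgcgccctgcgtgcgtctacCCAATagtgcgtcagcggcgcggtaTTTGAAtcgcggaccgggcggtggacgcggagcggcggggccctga

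TTTGAA was in 72.7% of the promoters of 22 matched G2/M genes (16 of 22) and in 4 of 25 promoters of G1/S genes, against 17.9% of all promoters. CCAAT was in 86.4% of the G2/M and 72.0% of the G1/S promoters, against 37.4% of all. Cdc20, the activator of the anaphase-promoting complex, had 89.2, 119.7 and 70.0 CPM on day 8 and 153, 188 and 148 CPM on day 6 (-0.81 ± 0.20, adjusted p = 0.017, and 0.068 without replicate 3). The mitotic kinase gene Aurka had 58.4, 67.6 and 32.3 CPM on day 8 and 87.7, 92.8 and 87.0 CPM on day 6 (adjusted p = 0.025, and 0.1 without replicate 3), and the mitotic cyclin gene Ccnb2 had 65.0, 68.2 and 36 CPM on day 8 and 113, 122 and 110.3 CPM on day 6 (adjusted p = 0.028, and 0.1 without replicate 3). Day 8 lay below day 6 in every library for each of these genes, as it did for 14.1% of all genes tested, and replicate 3 held the lowest level of each.

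Day 8 replicate 3 is described next by itself, as values with no test, since it is 1 library. The library was picked with earlier results of these data known, p53 targets and cell cycle genes among them. Its values for those lists are therefore a description and no independent finding. Levels after the word against are those of day 8 replicates 1 and 2 and, where a further set is given, of the day 6 libraries. Its G2/M genes were below all other KO libraries in 28 of 28 cases and its G1/S genes in 24 of 28, while 4954 of all 17818 genes tested (27.8%) lay below all others. The list mean, as log2(CPM + 1), was 5.82 for G2/M genes in replicate 3, against 6.94 and 6.97 in the other day 8 libraries and 7.21 to 7.27 on day 6. Mki67 was at 204 CPM, against 795 and 852 CPM in the other day 8 libraries. Rrm2, a subunit of ribonucleotide reductase, was at 36.3 CPM against 189.9 and 199 CPM, and E2f1 at 10.0 CPM against 50.3 and 48.3 CPM.

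Targets of p53, the transcription factor that stops the cell cycle or starts cell death after damage, went the other way. In replicate 3, 22 of 30 were above all other KO libraries (73.3%), against 4707 of all genes tested (26.4%). Cdkn1a, the CDK inhibitor p21, had 259.7 CPM in replicate 3, against 44.9 and 62.4 CPM in the other day 8 libraries and 74.99, 85.1 and 70.7 CPM on day 6. Mdm2, the ubiquitin ligase that p53 induces against itself, had 255 CPM, against 79.8 and 77.9 CPM and 108, 114 and 111 CPM. Tnfrsf10b, a death receptor, had 109.5 CPM, against 20.7 and 25.4 CPM and 56.5, 62.2 and 59.2 CPM, and Perp, an effector of p53-dependent cell death, had 51.9 CPM, against 6.15 and 5.94 CPM and 12.5, 12.7 and 8.69 CPM. The other 8 included Sesn1, at 12.6 CPM in replicate 3 against 23.8 and 20.5 CPM, and Ei24, at 77.1 CPM against 84.4 and 74.5 CPM. Trp53 itself, looked up after these values were seen, had 76.0 CPM in replicate 3, against 94.5 and 107 CPM and 127, 123 and 134 CPM.

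The change of p53 targets between the days depended on that library. Of the 30, 2 were higher and 1 lower with all libraries (median -0.10, and 1 higher without any other library but day 8 replicate 2), and 1 higher and 3 lower without replicate 3 (median -0.54). Plk3 was higher in both fits, with 135, 117 and 101 CPM on day 8 and 20.9, 17.7 and 16.9 CPM on day 6 (2.67 ± 0.54, adjusted p = 0.0041), and Gtse1, a G2 and S phase protein that restrains p53, was lower in both, with 54.6, 63.4 and 65.9 CPM on day 8 and 106, 117 and 116 CPM on day 6 (-0.88 ± 0.16, adjusted p = 0.0017). Btg2 was higher with all libraries (1.19 ± 0.31, adjusted p = 0.025) and not without replicate 3 (0.88, adjusted p = 0.11). Cdkn1a and Mdm2 changed sign, with log2 changes of 0.67 and 0.31 with replicate 3 and -0.52 and -0.49 without it, none of them called.

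The list furthest from the other libraries was the integrated stress response, the programme in which phosphorylated eIF2 alpha raises translation of ATF4, which then induces genes of amino acid supply and of cell death. Its mean was 6.23 in replicate 3, against 3.79 and 3.77 in the other day 8 libraries and 3.77 to 4.00 on day 6. In it 12 of 14 genes (85.7%) were above all other KO libraries, against 26.4% of all genes tested. Slc7a11, at 8.58 CPM against 22.8 and 35.6 CPM, and Vldlr, at 49.2 CPM against 76.0 and 41.3 CPM, were not. The letters TGATGNAA, the core of the amino acid response element bound by ATF4 with C/EBP factors, were searched on both strands after the values were seen. They were in 43.8% of 16 promoters of the 14 genes and in 3.97% of all 32851 promoters, and a match is no evidence of binding. The promoters of 3 genes that hold them are shown, with the match in capitals (on the strand opposite to the gene in Chac1 and Trib3, so that its complement is read there), from RefSeq, GRCm38.p6, at chr2:119350992-119351291 on the plus strand, chr2:152344011-152344310 on the minus strand and chr6:7693160-7693459 on the minus strand in that order.
Chac1: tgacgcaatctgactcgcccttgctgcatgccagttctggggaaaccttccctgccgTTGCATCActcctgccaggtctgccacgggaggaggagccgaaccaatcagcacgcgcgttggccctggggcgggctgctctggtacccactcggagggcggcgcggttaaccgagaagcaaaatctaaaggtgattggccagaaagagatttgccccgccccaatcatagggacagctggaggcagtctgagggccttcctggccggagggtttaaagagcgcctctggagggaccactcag
Trib3: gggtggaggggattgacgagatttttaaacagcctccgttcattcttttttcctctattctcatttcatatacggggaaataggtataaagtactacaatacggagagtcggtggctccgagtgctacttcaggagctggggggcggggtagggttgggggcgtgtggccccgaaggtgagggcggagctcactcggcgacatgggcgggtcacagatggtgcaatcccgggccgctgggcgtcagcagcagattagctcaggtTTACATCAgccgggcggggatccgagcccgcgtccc
Asns: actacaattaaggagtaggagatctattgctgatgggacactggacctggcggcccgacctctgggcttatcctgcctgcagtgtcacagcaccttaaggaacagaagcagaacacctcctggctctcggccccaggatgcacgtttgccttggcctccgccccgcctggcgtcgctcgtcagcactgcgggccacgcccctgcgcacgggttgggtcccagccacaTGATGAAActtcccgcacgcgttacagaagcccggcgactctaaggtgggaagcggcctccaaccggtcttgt

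Trib3, a pseudokinase that ATF4 induces, had 86.7 CPM in replicate 3, against 2.00 and 1.32 CPM in the other day 8 libraries and 1.65, 2.51 and 1.96 CPM on day 6. Chac1, which degrades glutathione, had 31.9 CPM, against 2.03 and 1.08 CPM and 0.694, 2.01 and 1.31 CPM. Asns, asparagine synthetase, had 255 CPM, against 37.3 and 40.6 CPM and 86.5, 83.4 and 86.6 CPM. In the other day 8 libraries Trib3 and Chac1 were near the day 6 level and Asns was below it. Ddit3, the cell death factor CHOP, had 128 CPM, against 7.98 and 7.18 CPM and 6.24, 7.85 and 7.66 CPM, Nupr1 had 37.9 CPM against 0.113 and 0.141 CPM and 0.408, 0.837 and 0.717 CPM, and Atf4 had 281 CPM against 57.0 and 61.0 CPM and 62.4, 60.0 and 59.8 CPM. Over the 2 days 1 of the 14 genes was called, Vldlr (2.11 ± 0.50, adjusted p = 0.013, not called without any one of the day 6 libraries), and the median was 1.20 with replicate 3 and -0.27 without it.

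The 10 genes highest in replicate 3 against the other day 8 libraries, at a mean of at least 20 CPM, held Trib3 and Ddit3 of that list and Slc7a3, a carrier of basic amino acids (68.6 CPM against 2.96 and 1.39 CPM). They also held genes of contractile cells: Acta2 (132 CPM against 4.91 and 5.51 CPM), Tagln (287 CPM against 12.7 and 15.0 CPM) and Myl9 (116 CPM against 7.28 and 9.99 CPM). Tnfrsf12a (64.6 CPM against 2.99 and 4.64 CPM), Anxa3 (70.0 CPM against 3.67 and 5.94 CPM) and Pdgfb (89.2 CPM against 5.84 and 8.48 CPM) were the others beside Lars2. Lars2, the mitochondrial leucyl-tRNA synthetase, had 5174 CPM in replicate 3, against 174 and 107 CPM in replicates 1 and 2 of day 8 and 2190.4, 10079 and 7663 CPM on day 6. The share of Rn45s in the same order was 21.8% in replicate 3, 4.24% and 15.8% in the other day 8 libraries, and 7.86%, 27.3% and 19.7% on day 6. The part of ribosomal RNA in the Lars2 counts was not tested. Each of the 10 genes was highest in replicate 3 among the mCaPS day 8 libraries too. There Acta2 had 281 CPM, against 27.5 and 22.2 CPM in the other mCaPS day 8 libraries. Trib3 had 128 CPM there, against 7.89 and 15.6 CPM. All but Myl9 and Lars2 were highest in replicate 1 among the WT day 6 libraries, Acta2 at 49.8 CPM against 4.98 and 7.09 CPM.

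The genes lowest in KO day 8 replicate 3 by the same rule were led by developmental transcription factors. Each of them was lowest in replicate 3 among the mCaPS day 8 libraries too, Pou3f2 at 0.323 CPM against 21.0 and 39.3 CPM. In the KO line Msx3, of the dorsal neural tube, had 3.27 CPM against 132 and 75.8 CPM. The neural POU factors Pou3f2 (21.3 CPM against 419.6 and 336 CPM) and Pou3f4 (8.13 CPM against 142 and 103 CPM), the proneural Neurod4, and Hoxa6 followed, with the cadherin Fat4 (40.3 CPM against 549.7 and 467 CPM), the G protein regulator Rgs8 (2.92 CPM against 54.2 and 40.9 CPM), the protease Adamts20 (2.85 CPM against 47.0 and 50.1 CPM) and the peroxisomal transporter Abcd2 (2.64 CPM against 57.6 and 35.8 CPM). For the neuronal lists as a whole, 29 of 30 pan-neuronal and 19 of 21 proneural genes were below both other day 8 libraries, as were 43.8% of all genes tested. Below all other KO libraries were 2 of each list, against 27.8% of all genes tested. Hypoxia and glycolysis genes were split. In replicate 3, 8 of 13 were below all other KO libraries and 4 of 13 above all of them, against 27.8% and 26.4% of all genes tested. Slc2a1, the glucose transporter GLUT1, was among the low ones, at 271 CPM against 1086 and 1003 CPM.

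**Figure D3:**
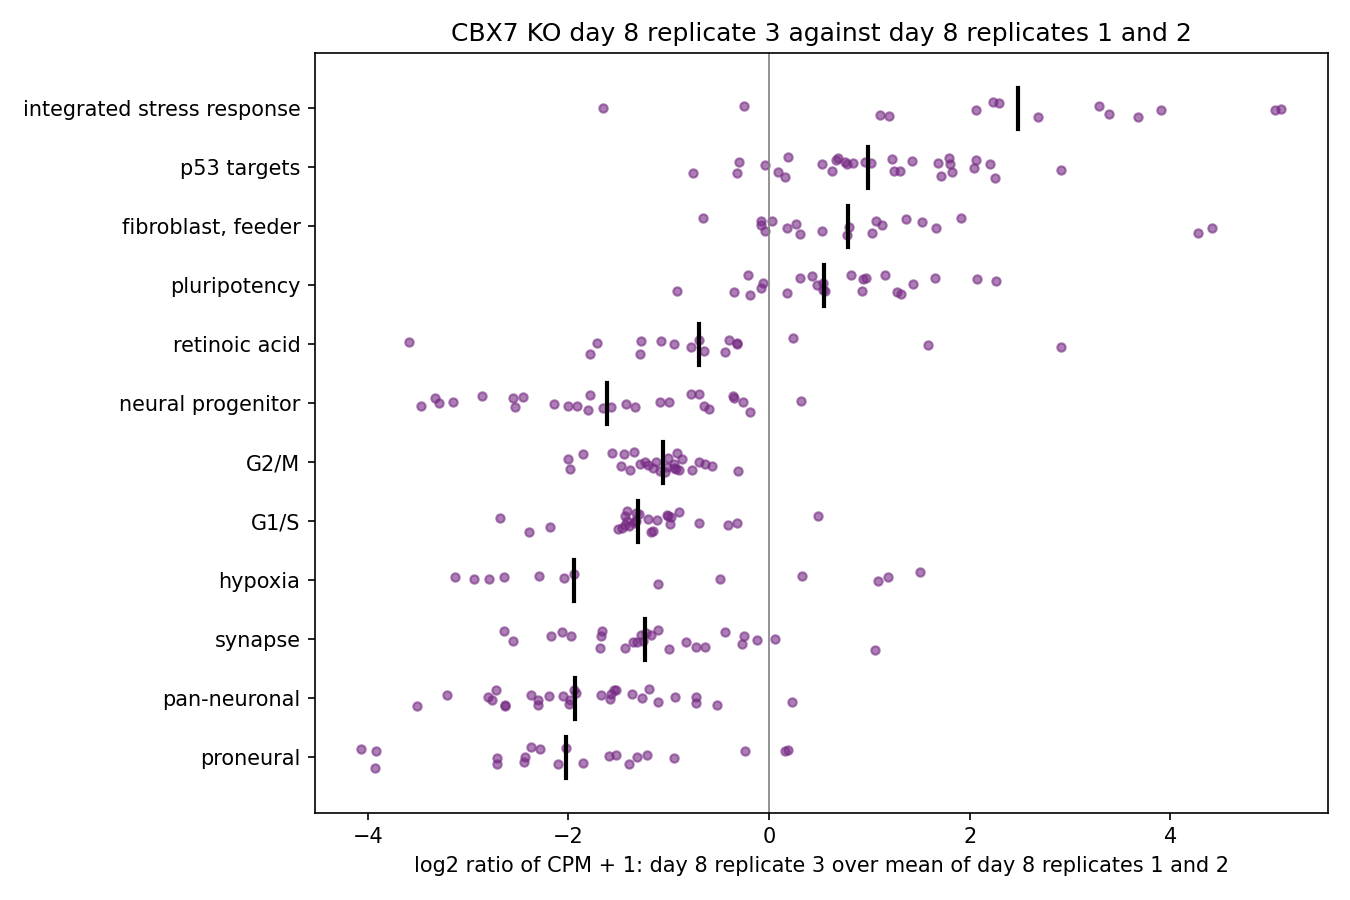
Log2 ratio of CPM + 1 in KO day 8 replicate 3 over the mean of day 8 replicates 1 and 2 (x axis) for every tested member of 12 gene lists (rows); each point is a gene and black bars are list medians. The median was 2.49 for the integrated stress response, 0.98 for p53 targets, -1.06 for G2/M genes and -1.93 for pan-neuronal genes.

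The summed markers of several other cell types were higher in KO day 8 replicate 3, and the sum for blood and endothelium was lowest among day 8 libraries. By list mean, blood and endothelial markers in replicate 3 (1.71) lay between the other day 8 libraries (1.86 and 1.58). The summed level of 20 fibroblast and feeder markers was 1838 CPM in replicate 3, 823 and 898 CPM in the other day 8 libraries and 567 to 859 CPM on day 6. In replicate 3, 12 of the 20 (60%) were above all other KO libraries, against 26.4% of all genes tested. That share was 52.9% for mesoderm and cardiac, 42.9% for endoderm and 30% for glial markers. For neural crest markers it was 25%, and for blood and endothelial markers 7.69%. Thy1, Lum, S100a4, Ccl2 and Mmp3 stayed below 1 CPM in all 6 libraries. The sum of mesoderm and cardiac markers was 167 CPM in replicate 3, 50.5 and 44.7 CPM in the other day 8 libraries and 54.1 to 90.4 CPM on day 6, with T, Nkx2-5 and Tnnt2 below 1 CPM throughout. Myh7, a cardiac myosin, had 54.0 CPM, against 1.02 and 1.27 CPM and 4.43, 5.02 and 5.04 CPM. Endoderm markers summed to 416 CPM in replicate 3, 126 and 179 CPM in the other day 8 libraries and 170.1 to 335 CPM on day 6, with Ttr and Amn below 1 CPM throughout, and Apoe supplied 311 CPM of it. Blood and endothelial markers summed to 38.7 CPM in replicate 3, 54.9 and 44.8 CPM in the other day 8 libraries and 36.3 to 82.99 CPM on day 6, and glial markers to 54.4 CPM in replicate 3, 40.01 and 33.9 CPM in the other day 8 libraries and 30.9 to 45.9 CPM on day 6. Neural crest markers summed to 90.4 to 154.6 CPM on day 8 and 84.9 to 124.1 CPM on day 6. No marker was at 0 in all 6 libraries, and of these 6 lists 1 gene was called over the 2 days (and Aldh1l1, a glial marker, lower without replicate 3), the neural crest factor Foxd3, with 1.35, 5.61 and 0.695 CPM on day 8 and 0.122, 0.335 and 0.169 CPM on day 6 (3.61 ± 0.91, adjusted p = 0.017), which kept its call without day 8 replicate 1 or 3 and not without any other library. The part of such cells in the other results was not tested.

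The same lists were read in the other lines of the neural series. The integrated stress response mean was 6.17 in mCaPS day 8 replicate 3 and 6.19 in WT day 6 replicate 1, near the 6.23 of KO day 8 replicate 3. In the mCaPS library, p53 targets were at 5.45, against 4.81 and 5.01 in the other mCaPS day 8 libraries, G2/M genes at 6.11, against 6.69 and 6.95, and pan-neuronal genes at 1.64, against 3.01 and 2.86. In the WT library p53 targets were at 4.95, against 4.42 and 4.91 in the other WT day 6 libraries, G2/M genes at 6.70, against 7.29 and 7.16, and pan-neuronal genes at 3.39, against 2.74 and 2.71. The mCaPS library also had G1/S genes at 4.99, against 6.09 and 6.06, and fibroblast and feeder markers at 4.48, against 3.66 and 3.30. KO day 8 replicate 3 thus shared high stress and p53 lists and a low G2/M list with a library of each of these lines. In WT the p53 gap was small (4.95 against 4.91 in the nearest library). A pan-neuronal level below the other libraries of its day was shared with the mCaPS library and not with the WT library.

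**Figure D4:**
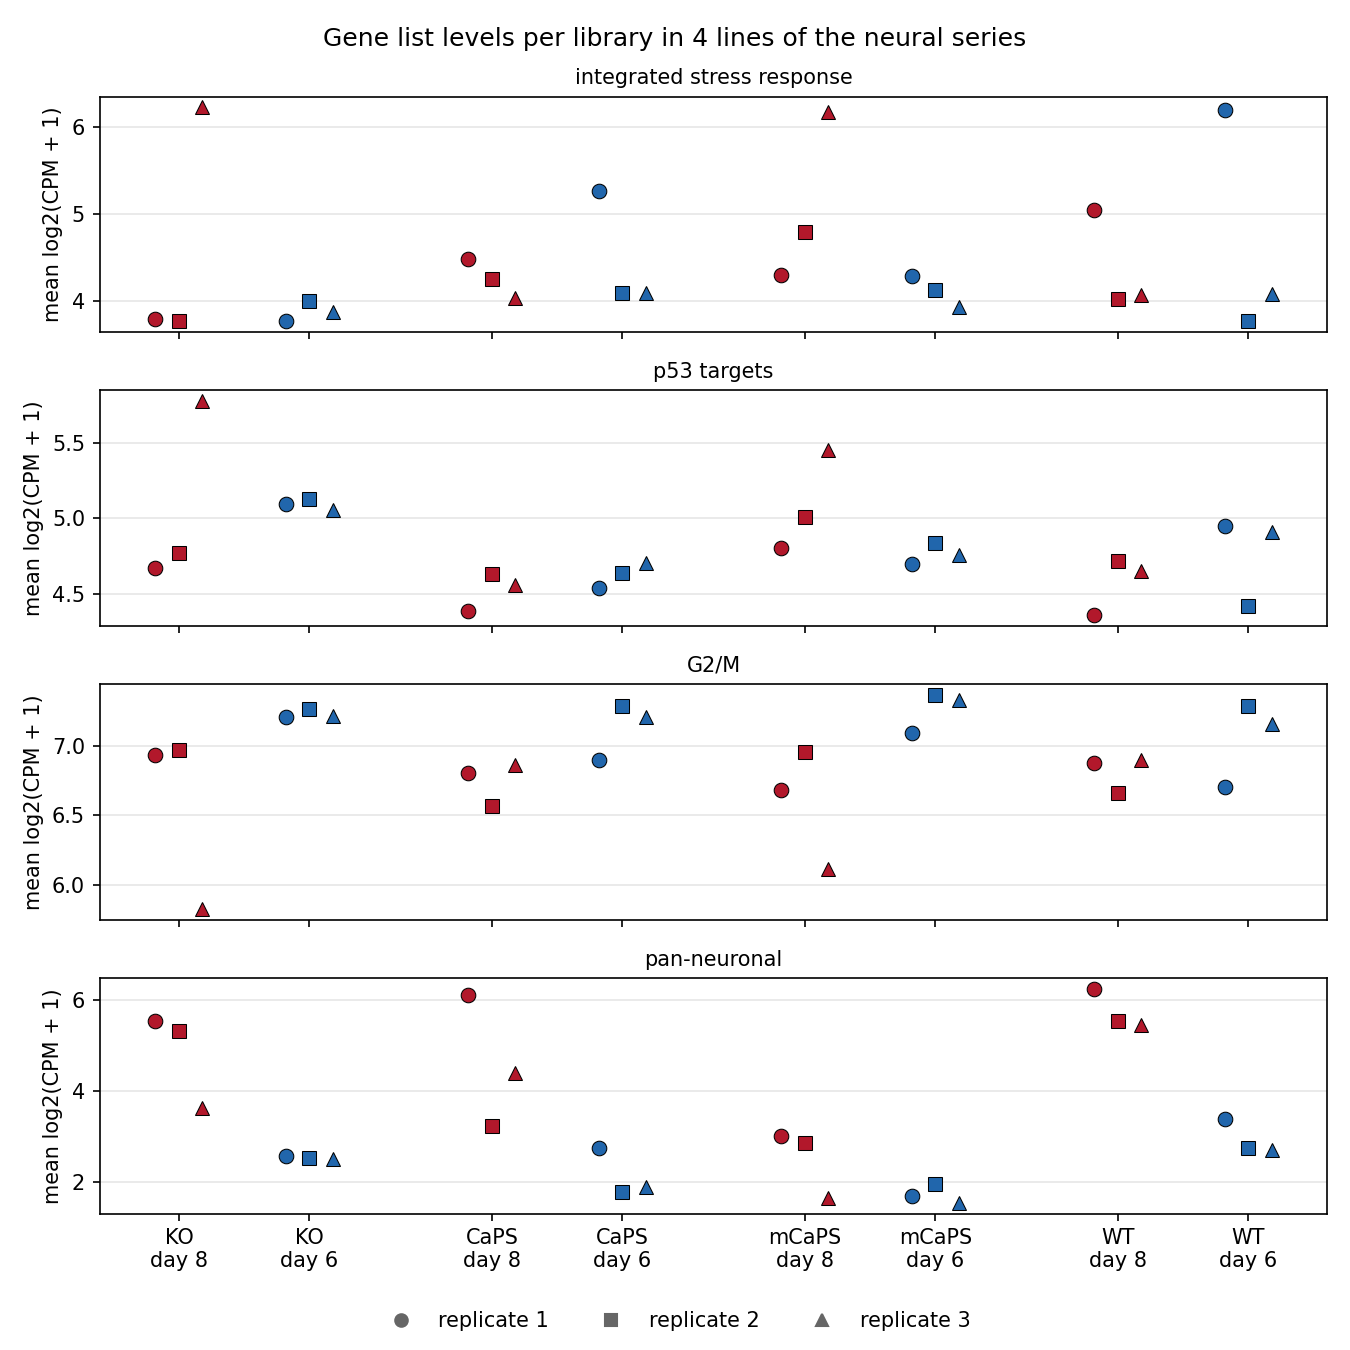
Mean log2(CPM + 1) of 4 gene lists (rows, y axis) in each library of the KO line, of the lines labelled CBX7-CaPS (levels only) and CBX7-mCaPS, and of WT (x axis, day 8 in red left of day 6 in blue, shapes giving the replicate). The stress list was at 6.23 in KO day 8 replicate 3, 6.17 in mCaPS day 8 replicate 3 and 6.19 in WT day 6 replicate 1.

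The step in KO cells was set against the same step in WT cells. In WT, 818 genes were higher on day 8 (4.59%) and 490 lower (2.75%), or 605 (3.33%) and 393 (2.16%) without WT day 6 replicate 1 and 387 (2.13%) and 275 (1.51%) without WT day 8 replicate 1. Genes called in both lines numbered 450 in the higher direction, which is 74.8% of the 602 KO calls and 55.0% of the WT calls, and 156 in the lower direction, which is 53.8% of the 290 KO calls and 31.8% of the WT calls. Called in both lines were 667 higher and 310 lower without KO day 8 replicate 3, 406 and 155 without WT day 6 replicate 1, and 263 and 109 without WT day 8 replicate 1. With all libraries, no gene was called in opposite directions. The difference between the 2 changes, tested as an interaction over all genes, passed for 0 of 17818 genes (0%) by edgeR's quasi-likelihood test and by DESeq2, with 399 genes at an unadjusted p under 0.05. It passed for 0 of 18181 without KO day 8 replicate 3 and for 1 gene without KO day 8 replicate 2. A p that misses the threshold does not show that the lines changed alike.

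List counts in KO and WT were close for neuronal genes. Pan-neuronal genes gave 22 higher of 30 in KO and 24 in WT, with medians of 3.19 and 3.13, proneural genes 14 and 15 of 21, and pluripotency genes 14 lower of 24 in each line. Synapse genes gave 9 higher in KO, or 16 without replicate 3, and 12 in WT. G1/S genes gave 7 lower in KO and 1 in WT, and G2/M genes 7 and 0, and without replicate 3 the KO counts were 1 and 1. Median changes of the integrated stress response were 1.20 in KO and -0.89 in WT, where WT day 6 replicate 1 was the high library.

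A few genes whose changes differed in size between KO and WT were chosen after their values were seen, and none passed over all genes. The gap was widest among them for Trib3, one of the genes highest in KO day 8 replicate 3, at 6.20 ± 1.79 (unadjusted p = 0.0017 in edgeR's test). It rests on single libraries. Trib3 had 86.7 CPM in KO day 8 replicate 3, against 2.00 and 1.32 CPM in the other KO day 8 libraries. In WT day 6 replicate 1 it had 76.5 CPM, against 1.67 and 4.80 CPM in the other WT day 6 libraries. Without KO day 8 replicate 3 the difference was 2.03 and the KO change -0.30, neither called. Aldh1a2 changed by 3.51 ± 0.73 in KO, where it had 24.4, 23.2 and 14.3 CPM on day 8 and 1.35, 1.13 and 2.95 CPM on day 6, and by 0.69 in WT, where it had 1.25, 5.11 and 10.2 CPM on day 8 and 0.761, 4.86 and 4.58 CPM on day 6. The difference was 2.82 ± 0.95 (unadjusted p = 0.0062 in edgeR's test). Hoxb9 had 1036, 264 and 309 CPM on day 8 and 155, 3.29 and 2.35 CPM on day 6 in WT, a difference of 2.68 ± 1.77 from KO (unadjusted p = 0.14). Gli1 changed by 0.96 ± 0.46 in KO and -1.09 in WT, a difference of 2.05 ± 0.65 (unadjusted p = 0.0036). Celf5 went the other way, with 0.31 ± 0.38 in KO and 1.68 in WT (difference -1.37 ± 0.54, unadjusted p = 0.016).

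Grb10, an imprinted adaptor of growth factor receptors, was at another level in the KO line. It had 25.6, 8.41 and 24.9 CPM in KO on day 8 and 6.65, 10.4 and 6.94 CPM in KO on day 6, against 835 to 1108 CPM in mCaPS on day 8 and 788 to 996 CPM in mCaPS on day 6, and 793 to 931 CPM in WT on day 8 and 1177 to 1227 CPM in WT on day 6. Within KO it was called higher on day 8 (1.29 ± 0.31, adjusted p = 0.012), and the difference from the WT change was 1.78 ± 0.43 (unadjusted p = 0.00025). Of 24 imprinted genes 3 were called higher in KO and none lower (4 without replicate 3, and 1 to 3 without any other KO library), the others being Cdkn1c and the neuronal proteolipid gene Nnat, with 164, 214 and 39.7 CPM on day 8 and 38.1, 51.6 and 43.2 CPM on day 6 (1.65 ± 0.37, adjusted p = 0.0082).

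**Figure D5:**
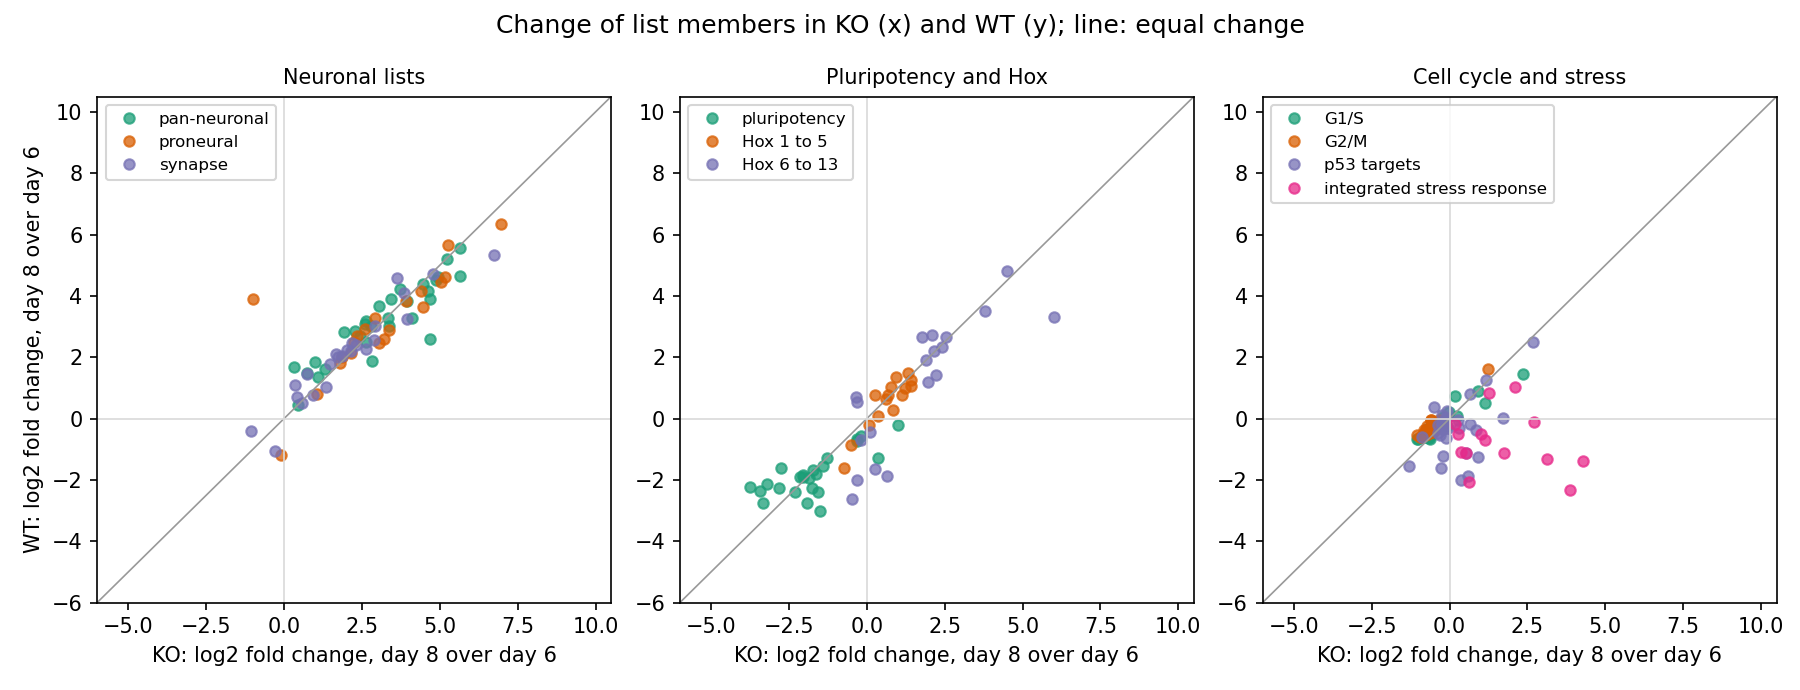
Log2 change of day 8 over day 6 in KO (x axis) and in WT (y axis) for members of 10 lists in 3 panels; each point is a gene, the diagonal marks equal change, and genes with no counts in any library of a day are left out. Most neuronal genes lie near the diagonal (medians of 3.19 in KO and 3.13 in WT for the pan-neuronal list), and genes of the integrated stress response lie right of it (medians of 1.20 and -0.89).

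In mCaPS cells the same interval gave fewer calls, 32 higher (0.18%) and 15 lower (0.0842%), or 51 (0.28%) and 11 (0.0605%) of 18182 without mCaPS day 8 replicate 3. The change in KO minus that in mCaPS passed for 0 of 17818 genes (0%) by edgeR's test, with 747 at an unadjusted p under 0.05, for 25 by DESeq2, and for 1 by edgeR's test without KO day 8 replicate 1. Without KO day 8 replicate 3 it passed for 23 of 18181 (0.127%) by edgeR's test, 20 of them with the larger change in KO. Among them were the neuronal genes Gap43 and Onecut2. All of the 23 but Cyp26b1 (adjusted p = 0.0042) were just under the threshold, at the same adjusted p of 0.0476. Leaving out replicate 3 of day 8 in both lines left 1 gene of 18164 (0.00551%), Cyp26b1, with a difference of 3.73 (adjusted p = 0.0163). Cyp26b1 had 1416, 945 and 97.0 CPM in KO on day 8 and 58.5, 50.5 and 93.2 CPM in KO on day 6, against 593, 376 and 151 CPM in mCaPS on day 8 and 586, 201 and 362 CPM in mCaPS on day 6. In mCaPS the 2 days overlapped.

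Few Polycomb genes were called over the step. Of 20 PRC1 genes none was called with all libraries (1 higher without day 8 replicate 3). Paralogs of CBX7 that bind the same histone mark had the following levels. Cbx2 had 70.0, 89.2 and 38.8 CPM on day 8 and 79.8, 89.9 and 82.5 CPM on day 6 (log2 change -0.35 ± 0.23, adjusted p = 0.44), Cbx8 had 5.47, 5.94 and 7.26 CPM on day 8 and 3.61, 4.42 and 5.21 CPM on day 6 (0.50 ± 0.48, adjusted p = 0.64), and Cbx6 had 52.7, 50.5 and 56.8 CPM on day 8 and 43.4, 47.2 and 45.9 CPM on day 6 (0.23 ± 0.19, adjusted p = 0.56). The catalytic subunit gene Rnf2 had 148, 131 and 123 CPM on day 8 and 147, 141 and 131 CPM on day 6. Of 12 PRC2 genes 1 was called, Phf19, a subunit that reads methylated lysine 36 of histone H3, which was lower (without day 8 replicate 3 Jarid2, a DNA-binding subunit, was also called, higher), with 2.26, 1.88 and 2.33 CPM on day 8 and 5.77, 7.37 and 9.01 CPM on day 6 (-1.78 ± 0.39, adjusted p = 0.0069). Immediate early genes (17) and hypoxia genes (13) gave no call in either direction. In day 8 replicate 3, 10 of the 17 immediate early genes (58.8%) were above all other KO libraries, against 26.4% of all genes tested.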

How the data were processed

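Libraries were made from total RNA after removal of ribosomal RNA. The authors deposited raw read counts per gene for 24984 genes of the neural series, with gene coordinates on mm10. Per the submitters' processing notes the tools were STAR 2.7.0, cutadapt 1.14, HOMER 4.10.4, featureCounts 1.6.3 and edgeR. Their roles, the strand setting and the handling of reads with several matches are not given in the sources used here. Among deposited counts of 1 to 20 in the KO libraries, 76.5% to 82.8% were even numbers; why was not tested, and the independent fragments may be fewer than the counts. Another 9 columns matched no sample and were not used.

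A robust quasi-likelihood model (edgeR 4.0.16 with limma 3.58.1, under R 4.3.3) was fitted to the counts of 36 libraries in 12 groups of 3 (days 0, 6 and 8 of the KO, CBX7-CaPS, CBX7-mCaPS and WT lines), after filterByExpr, with TMM scaling (common dispersion 0.127). All tests were two-sided F tests, adjusted by Benjamini and Hochberg over all genes tested, at 0.05. The SE is the unshrunken log2 ratio divided by the root of the F statistic. Where a day had no counts a lower bound against 3 counts over its libraries is given. CPM includes TMM scaling, and list means use a pseudocount of 1.

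Genes named are members of lists written from general knowledge, the 10 largest gains and losses (called, at least 5 CPM on the higher day, days not overlapping), the 10 genes highest and lowest in day 8 replicate 3 at a mean of 20 CPM or more, and genes marked as chosen later. A set rule for genes differing from WT named none. The members and lists, and day 8 replicate 3 as the library shown apart, were chosen with earlier results of these data known. No 2 of the 6 libraries held identical counts. In simulated counts for KO day 8 against day 6 over 17465 genes, 21 of 50 genes changed 2-fold, 48 of 50 changed 4-fold, 45 of 50 changed 8-fold and 50 of 50 changed 16-fold were called, and 2 of 17265 unchanged genes. The changed genes had a mean of at least 5 CPM. All simulated libraries of a group shared the same mean, and none stood apart as day 8 replicate 3 does. The rates may therefore be too high for the real libraries. Promoters of 300 bases came from RefSeq by symbol. DESeq2 1.42.0 was an alternative. Some members are not reported here.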

Additional observations from a re-analysis of the deposited data

How the results depend on the processing

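Scaling by relative log expression (RLE), removal of Rn45s, no filter on low counts, and a fit of only the 6 libraries kept both counts of KO calls within 1.5 times of 602 higher and 290 lower. The fit of the 6 libraries shared 337 and 125 calls with those, and in it 8 proneural, 3 Notch, 3 neural progenitor and 5 neuronal subtype genes were higher, and 7 pluripotency, 0 G1/S and 1 G2/M genes lower. DESeq2 gave 943 higher and 554 lower (692 adjusted p were NA), 25 genes differing between KO and mCaPS, and 0 between KO and WT. Leaving out one KO library gave 184 to 884 higher and 86 to 506 lower genes, 0 to 1 genes differing from WT (1 without KO day 8 replicate 2), and 0 to 23 from mCaPS (1 without day 8 replicate 1, 23 without day 8 replicate 3). The other alternatives chosen after seeing the data left out WT day 6 replicate 1, WT day 8 replicate 1 or mCaPS day 8 replicate 3, and kept the KO counts within 1.5 times. Without both KO and mCaPS day 8 replicate 3 there were 910 higher, 685 lower and 1 differing from mCaPS. These fits change the number of genes tested, the residual degrees of freedom and the spread together, and the cause of each change in count was not tested.

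With the replicate number as a block, in the 6 libraries alone, 47 genes were higher and 13 lower, 43 and 12 of them among the calls without it. In KO, deviations of same-numbered libraries from their day's mean correlated at 0.40, 0.04 and 0.06, and those of differently numbered libraries at -0.39 to 0.24. WT and mCaPS libraries were not read in this way. The labels do not say that a number marks a shared culture, and the numbers were not taken to pair the libraries.

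Of 168 genes tracked, 107 were called, 17 of these under every alternative tried on single genes, and no called gene changed direction. Log2 changes that turned sign when one library was left out spanned -1.03 to 2.65 for Acta2, -0.87 to 2.08 for Anxa3, -1.52 to 0.30 for Apoe, -1.13 to 0.75 for Asns, -0.042 to 1.46 for Atf4, -0.85 to 0.055 for Cbx7, -0.52 to 1.03 for Cdkn1a, -0.67 to 0.0069 for Cyp26a1, -0.20 to 0.61 for E2f1, -0.058 to 1.20 for Elavl2, -0.0051 to 0.30 for Hes1, -0.49 to 0.55 for Mdm2, -0.61 to 0.035 for Mnx1, -2.07 to 2.48 for Myh7, -1.94 to 0.89 for Myl9, -2.33 to 4.83 for Nupr1, -0.83 to 0.067 for Pax6, -0.50 to 2.24 for Pdgfb, -0.91 to 1.32 for Perp, -0.32 to 0.14 for Sesn1, -0.49 to 0.28 for Slc2a1, -1.83 to 2.19 for Slc7a3, -0.66 to 0.021 for Sox2, -1.52 to 1.89 for Tagln, -1.36 to 0.15 for Tnfrsf10b, -0.65 to 2.50 for Tnfrsf12a and -0.30 to 4.41 for Trib3. Under the block they were -0.31 for Asns, -0.13 for E2f1, -0.54 for Myh7, -0.89 for Myl9, -0.51 for Slc7a3 and -0.34 for Tagln. Depth limits genes below 1 CPM, whose ratios rest on few counts.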
